A study of Rattus norvegicus with 48 samples.

Results

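Hepatocytes are the main working cells of the liver, and 3 genes that mark them were followed by RNA sequencing of rat precision-cut slices, thin sections of living liver kept outside the body. The genes were Hnf4a, Alb and Cyp2e1, chosen by name as the Ensembl rows ENSRNOG00000008895, ENSRNOG00000002911 and ENSRNOG00000012458, so 3 of the 32883 genes in the deposited count table. The names rest on that choice, since neither the files nor the gene table used here pairs these IDs with symbols. The 48 libraries formed 5 groups. Slices from livers of rats with a tied bile duct (bile duct ligation, BDL), which stops bile from draining, were treated with SB525334 (BDL_SB525334, n = 9), Nint (BDL_Nint, n = 10), Sora (BDL_Sora, n = 10) or vehicle (BDL_veh, n = 10), and slices from sham-operated rats received vehicle (Sham_veh, n = 9). SB525334 inhibits the type I receptor kinase of transforming growth factor beta, ALK5. Nint and Sora are read here as nintedanib and sorafenib, inhibitors of several kinases, and the labels give only the short forms. The labels give no strain, age, dose or exposure time and tie no library to an animal, so the p-values reflect spread among libraries alone, and that spread may be technical. In the deposited sample sheet all 9 of the 9 SB525334 libraries carry a different compound code, and the sample titles were followed here.

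Hnf4a encodes a nuclear receptor that binds DNA and is a central transcription factor of the differentiated hepatocyte, needed in the mouse liver for the expression of many hepatocyte genes. Alb encodes albumin, the main protein of blood plasma, which hepatocytes make and secrete. Cyp2e1 encodes a cytochrome P450 enzyme that oxidises ethanol and other small molecules, and in normal liver it is found mostly in hepatocytes near the central vein. Loss of such transcripts is commonly used to follow dedifferentiation of hepatocytes in culture.

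The 250 bases before each annotated start are shown so that the start regions of genes with different patterns in these libraries can be read side by side, with letters that liver transcription factors and the basal machinery are known to bind. Sequences are from RefSeq, build GRCr8, on the strand of the gene, 5′ to 3′. They lie at chr14:17906980-17907229 (minus strand) for Alb, at chr3:172605970-172606219 and chr3:172641586-172641835 (plus strand) for the upstream and downstream starts listed for Hnf4a, and at chr1:205269717-205269966 (plus strand) for Cyp2e1. Capitals mark the HNF1 core GTTAAT (or ATTAAC), the CCAAT box (or ATTGG) and, on the gene's strand only, the TATA box TATAAA; no marked matches overlap.
Alb: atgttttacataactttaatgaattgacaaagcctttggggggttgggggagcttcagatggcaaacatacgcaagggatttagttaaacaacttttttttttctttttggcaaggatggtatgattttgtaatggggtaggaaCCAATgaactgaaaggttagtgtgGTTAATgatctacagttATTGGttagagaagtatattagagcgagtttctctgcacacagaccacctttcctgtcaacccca
Hnf4a upstream start: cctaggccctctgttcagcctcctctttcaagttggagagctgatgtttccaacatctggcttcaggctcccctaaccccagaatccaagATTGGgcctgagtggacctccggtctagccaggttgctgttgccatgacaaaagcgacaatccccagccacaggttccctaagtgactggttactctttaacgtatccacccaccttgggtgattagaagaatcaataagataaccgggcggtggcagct
Hnf4a downstream start: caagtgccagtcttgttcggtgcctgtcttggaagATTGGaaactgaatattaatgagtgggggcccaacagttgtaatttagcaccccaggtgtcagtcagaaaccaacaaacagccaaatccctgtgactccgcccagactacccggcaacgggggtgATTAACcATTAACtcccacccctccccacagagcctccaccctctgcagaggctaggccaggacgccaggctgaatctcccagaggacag
Cyp2e1: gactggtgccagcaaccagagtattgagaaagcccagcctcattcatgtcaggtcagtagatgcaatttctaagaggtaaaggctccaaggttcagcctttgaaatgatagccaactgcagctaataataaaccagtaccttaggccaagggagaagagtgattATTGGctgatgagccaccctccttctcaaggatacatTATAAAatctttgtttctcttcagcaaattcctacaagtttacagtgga
The HNF1 core was found 82 bases before the Alb start and at 90 and 83 bases before the downstream Hnf4a start, and 6.45% of the 33469 rat windows of this length held it. A CCAAT box was found in all 4 windows and in 34% of rat windows. TATAAA was found in the Cyp2e1 window, 49 bases before the start, and in 8.06% of rat windows. An HNF4 element, CAAAGTCCA on either strand, was in 0 of the 4 windows and in 0.338% of rat windows. These matches describe the letters in the windows, and the count table does not separate the Hnf4a starts.

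Counts per library totalled 12249454 to 29596955. Levels are given as CPM, the counts divided by a library size scaled with TMM factors to set libraries on a common scale. They are not corrected for gene length, so levels are compared between groups and not between genes. All 3 genes passed the filter on low counts, as did 14775 genes in all. Calls were made with edgeR's quasi-likelihood test, at p under 0.05 after Benjamini-Hochberg adjustment over all tested genes. Whole slices were sequenced, so fewer hepatocytes and less RNA per hepatocyte cannot be told apart. SB525334 libraries 1, 6 and 8, vehicle libraries 3 and 6 and sham libraries 2 and 4 stood apart from their groups. Results that rest on them are given with and without them. Each set held the highest or lowest values of its group for some of the 3 genes. For those genes, leaving the set out moves the result in a direction fixed by that choice.

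**Figure D1:**
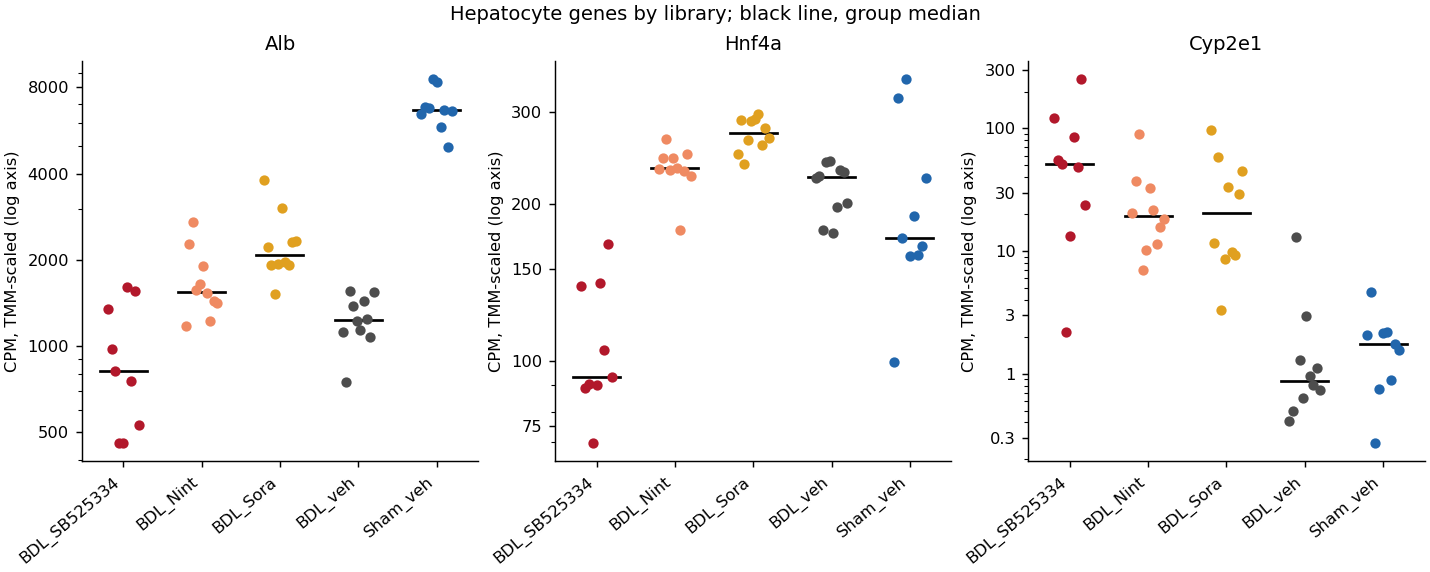
Levels of Alb, Hnf4a and Cyp2e1 in CPM (log axes) in each of the 48 libraries, by group, with the group median as a black line. Alb is highest in all 9 sham libraries, Hnf4a is lowest in SB525334 libraries by median (93.1 CPM), and Cyp2e1 has medians of 19.3 to 51 CPM with the compounds, against 0.877 CPM with vehicle and 1.76 CPM in sham slices.

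Ligated slices with vehicle were set against sham slices with vehicle to see what ligation did. Alb fell, while the values of Hnf4a and Cyp2e1 overlapped between the groups and did not pass the test. Thus 1 of the 3 genes was called, in a comparison in which 82.2% of all tested genes were called in either direction, 40% higher and 42.2% lower.

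Alb ranged from 753 to 1560 CPM in ligated vehicle libraries (median 1230), against 4940 to 8530 CPM in sham libraries (median 6680). The 10 ligated libraries were all below the 9 sham libraries. The mean was 1250 ± 243 CPM in ligated slices and 6770 ± 1110 CPM in sham slices (SD), a log2 fold change of -2.44 (SE 0.2, adjusted p = 2.48e-15 in edgeR), or 5.43-fold lower. Only 1.92% of tested genes had a lower log2 fold change. Read mapping separated the same groups without overlap: non-uniquely mapped reads were 8.54 ± 0.235% in ligated vehicle slices and 11.3 ± 0.923% in sham slices (SD). Mitochondrial alignments were 1.42 ± 0.0644% in ligated vehicle slices and 2.25 ± 0.142% in sham slices, and intronic ones were 35.6 ± 0.895% in ligated vehicle slices and 27.4 ± 2.13% in sham slices (SD). Whether these shares bear on the level of Alb was not tested.

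Hnf4a ranged from 176 to 242 CPM in ligated vehicle libraries (median 225), against 99.8 to 347 CPM in sham libraries (median 172). The ligated range lay within the sham range. The log2 fold change was 0.07 (95% interval -0.22 to 0.36, edgeR adjusted p = 0.651). Sham libraries 2 and 4 held 320 and 347 CPM and the other 7 held 99.8 to 224 CPM, so the sham mean of 204 ± 80.5 CPM (SD) covers an uneven set. Without those 2 libraries, a choice made after seeing the values, the log2 fold change was 0.36 (edgeR adjusted p = 0.00701), with sham library 1 left out it was -0.02 (edgeR adjusted p = 0.893), and with plate column in the fit -0.01. It was 0.42 when libraries were scaled to total counts (edgeR adjusted p = 0.0123), a scaling that shifted the median log2 fold change of all tested genes to 0.305, from -0.045 with TMM factors.

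Cyp2e1 ranged from 0.409 to 13 CPM in ligated vehicle libraries (median 0.877), against 0.271 to 4.64 CPM in sham libraries (median 1.76). These are low levels for a gene known as strongly expressed in intact adult liver: libraries held 6 to 217 counts with ligation and vehicle and 4 to 68 counts in sham slices. The groups overlapped, with a log2 fold change of 0.3 (95% interval -1.32 to 1.92, edgeR adjusted p = 0.739). Vehicle library 3 set the sign. It held 13 CPM and library 6 held 2.98 CPM, against 0.409 to 1.29 CPM in the other 8 vehicle libraries. Without library 3 the log2 fold change was -0.83 (edgeR adjusted p = 0.362), and without both it was -1.19 (edgeR adjusted p = 0.224). With replicate number as a block it was -0.13, and from the authors' log CPM -0.25.

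The compounds were then compared with vehicle in ligated slices. The 3 comparisons share the 10 vehicle libraries, so they are not independent of each other. Cyp2e1 rose with each compound, Alb rose with Sora, and Hnf4a fell with SB525334. With SB525334, 2 of the 3 genes were called, where 73% of all tested genes were (38.2% higher and 34.8% lower). With Nint, 1 of the 3 was called (24.3% of all tested genes, 13.3% higher and 10.9% lower), and with Sora 2 of the 3 (29.3% of all tested genes, 16.3% higher and 13% lower).

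Hnf4a ranged from 69.6 to 168 CPM with SB525334 (median 93.1), from 178 to 267 CPM with Nint (median 235), from 239 to 298 CPM with Sora (median 274) and from 176 to 242 CPM with vehicle (median 225). All 9 SB525334 libraries were below all 10 vehicle libraries. With SB525334 its mean was 109 ± 32.3 CPM, against 215 ± 24.9 CPM with vehicle (SD), a log2 fold change of -0.97 (SE 0.14, adjusted p = 7.85e-08 in edgeR), or 1.96-fold lower. In this comparison 34.8% of tested genes were called lower. Without SB525334 libraries 1, 6 and 8, the highest of the group in Hnf4a, the change was -1.26.

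With Sora, 9 of 10 libraries lay above the highest vehicle value of Hnf4a, but the log2 fold change of 0.35 did not pass the test (95% interval 0.07 to 0.63, edgeR adjusted p = 0.0519). It passed in a fit of the 2 groups alone (edgeR adjusted p = 0.000115), with plate column in the fit (edgeR adjusted p = 0.027), and with Sora library 3 or vehicle library 4 or 5 left out (edgeR adjusted p = 0.0473, 0.0492 and 0.048). Over the other alternatives its adjusted p ran up to 0.146. With Nint the log2 fold change was 0.13 (95% interval -0.15 to 0.4, edgeR adjusted p = 0.572).

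Alb ranged from 459 to 1610 CPM with SB525334 (median 820), from 1180 to 2720 CPM with Nint (median 1550), from 1520 to 3790 CPM with Sora (median 2090) and from 753 to 1560 CPM with vehicle (median 1230). With Sora, 9 of 10 libraries lay above the highest vehicle library. Its mean was 2290 ± 659 CPM with Sora and 1250 ± 243 CPM with vehicle (SD), a log2 fold change of 0.88 (SE 0.19, adjusted p = 0.000321 in edgeR), or 1.84-fold higher, where 16.3% of tested genes were called higher. With Nint, 5 of 10 libraries lay above the highest vehicle library. The log2 fold change of 0.44 did not pass the test (95% interval 0.06 to 0.82, edgeR adjusted p = 0.0839), but did in a fit of the 2 groups alone (0.43, edgeR adjusted p = 0.026).

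With SB525334 the Alb values spread to both sides of vehicle, with 2 libraries above the highest vehicle value and 3 below the lowest. The log2 fold change was -0.4 (95% interval -0.79 to 0, edgeR adjusted p = 0.064). The call depended on scaling and on libraries. It passed with RLE factors (-0.47, edgeR adjusted p = 0.0264), with total counts (-0.78, edgeR adjusted p = 0.000478), and without SB525334 library 1, 6 or 8 or vehicle library 2 (-0.47, -0.53, -0.52 and -0.46; edgeR adjusted p = 0.0308, 0.0136, 0.0161 and 0.0333). Without SB525334 libraries 1, 6 and 8 together it was -0.9 (edgeR adjusted p = 3.08e-05). These libraries held the highest Alb values of the group, so leaving them out lowers Alb by that choice. Total counts moved the median log2 fold change of all genes in this comparison to -0.377, from 0.036 with TMM factors.

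Cyp2e1 ranged from 2.17 to 252 CPM with SB525334 (median 51), from 7.01 to 91 CPM with Nint (median 19.3), from 3.3 to 97.5 CPM with Sora (median 20.5) and from 0.409 to 13 CPM with vehicle (median 0.877). Above the highest vehicle library lay 8 of 9 SB525334, 7 of 10 Nint and 5 of 10 Sora libraries. The log2 fold change was 5.03 with SB525334 (SE 0.7, adjusted p = 2.03e-08 in edgeR), 3.59 with Nint (SE 0.67, adjusted p = 5.43e-05 in edgeR) and 3.78 with Sora (SE 0.67, adjusted p = 2.4e-05 in edgeR). These are 32.6-fold, 12-fold and 13.7-fold higher than vehicle.

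Among 14775 tested genes ordered from the highest log2 fold change, Cyp2e1 stood at place 4 with SB525334, 3 with Nint and 4 with Sora. Genes called higher made up 38.2%, 13.3% and 16.3% of those tested in these comparisons. The size of the rise depended on vehicle library 3. Without it the log2 fold changes were 6.15 with SB525334, 4.71 with Nint and 4.9 with Sora, and without vehicle libraries 3 and 6 they were 6.51, 5.07 and 5.26. These are the vehicle libraries highest in Cyp2e1, so leaving them out enlarges the rise by that choice. The other 8 vehicle libraries held 6 to 19 counts. Without SB525334 libraries 1, 6 and 8 the change with SB525334 was 3.86 (edgeR adjusted p = 2.92e-06).

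**Figure D2:**
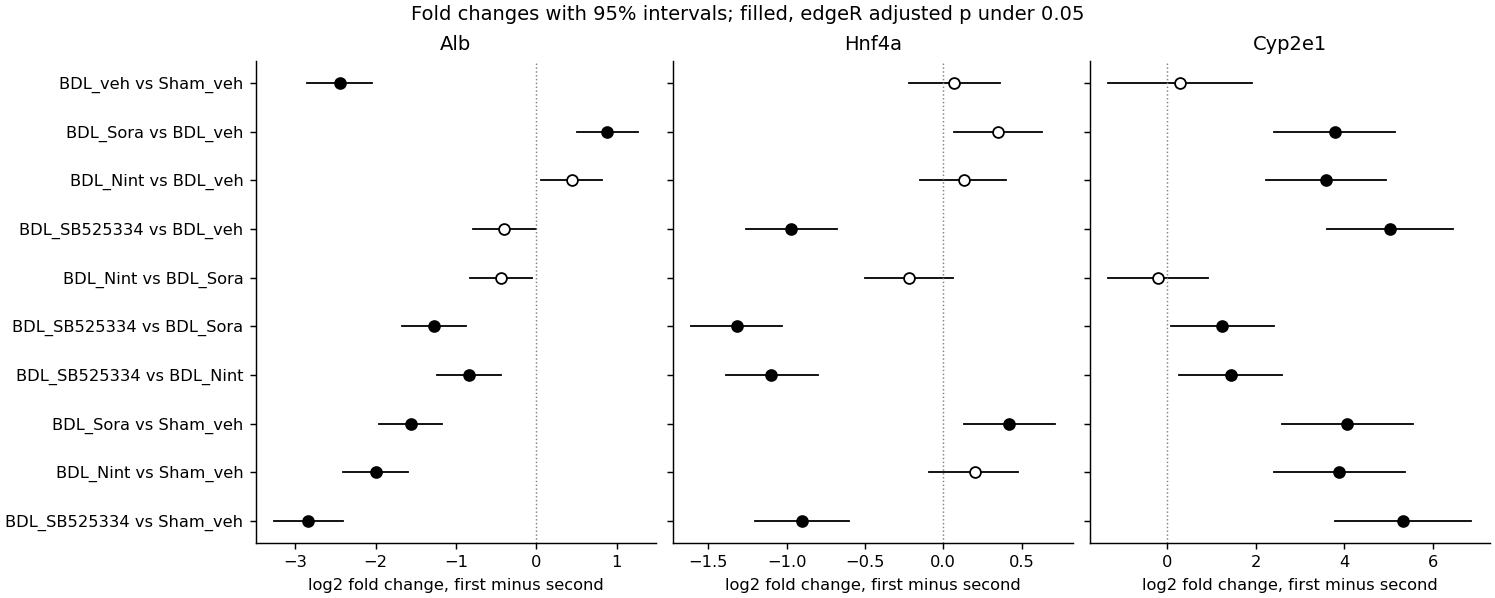
Log2 fold changes of the 3 genes in the 10 pairwise comparisons, each as the first named group minus the second, with 95% intervals; filled circles passed at an edgeR adjusted p under 0.05. Cyp2e1 lies above 0 for each compound against vehicle (5.03, 3.59 and 3.78), while Hnf4a lies below 0 in the 4 comparisons with SB525334 as the first group.

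Against sham slices, Alb was lower and Cyp2e1 higher with each compound. These comparisons share the 9 sham libraries. All 3 genes were called with SB525334 (81.2% of all tested genes, 42.9% higher and 38.4% lower), 2 with Nint (80.9%, 40% higher and 40.9% lower) and 3 with Sora (80.4%, 40.1% higher and 40.3% lower), so the counts are near those shares. Alb was below every sham library in all 9, 10 and 10 libraries, with log2 fold changes of -2.84 with SB525334 (SE 0.21, adjusted p = 1.17e-16 in edgeR), -2 with Nint (SE 0.2, adjusted p = 9.62e-13 in edgeR) and -1.56 with Sora (SE 0.2, adjusted p = 8.06e-10 in edgeR).

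Cyp2e1 exceeded the highest sham value in 8 of 9 SB525334, 10 of 10 Nint and 9 of 10 Sora libraries. The log2 fold changes against sham were 5.33 with SB525334 (SE 0.76, adjusted p = 2.2e-08 in edgeR), 3.88 with Nint (SE 0.73, adjusted p = 5.81e-06 in edgeR) and 4.07 with Sora (SE 0.73, adjusted p = 2.63e-06 in edgeR). Without SB525334 libraries 1, 6 and 8 the first was 4.16 (edgeR adjusted p = 2.3e-06).

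Hnf4a lay below sham with SB525334, by a log2 fold change of -0.9 (SE 0.15, adjusted p = 3.96e-07 in edgeR), and above it with Sora, by 0.42 (SE 0.14, adjusted p = 0.00703 in edgeR). Both groups overlapped with sham. Below the lowest sham library lay 5 of 9 SB525334 libraries, and above the highest lay 0 of 10 Sora libraries. With Nint the Hnf4a log2 fold change was 0.2 (95% interval -0.09 to 0.48, edgeR adjusted p = 0.2). Leaving out sham library 2 or 4 brought the Nint difference past the threshold (0.3 and 0.33, edgeR adjusted p = 0.0434 and 0.0235), as did leaving out both (0.48, edgeR adjusted p = 0.000405) and total counts (0.51, edgeR adjusted p = 0.00265). Without both, the SB525334 difference was -0.61 (edgeR adjusted p = 1.91e-05) and the Sora difference was 0.71 (edgeR adjusted p = 1.45e-06).

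The compounds were also compared with each other, as 3 pairs. Doses and times are not given in the labels, so the sizes compare these slices and not the compounds at matched exposure. Of the 3 genes, 3 differed between SB525334 and Sora (72.4% of all tested genes, 36.1% higher and 36.3% lower) and 3 between SB525334 and Nint (72.7%, 36.4% higher and 36.3% lower). Between Nint and Sora 0 passed by edgeR, where 2.32% of all tested genes did (1.37% higher and 0.948% lower). At an unadjusted edgeR p under 0.05, 1 gene did, Alb (0.0247), and DESeq2 and limma also called none of the 3 between Nint and Sora.

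Hnf4a was lower with SB525334 than with Nint by a log2 fold change of -1.1 (SE 0.15, adjusted p = 5.34e-09 in edgeR) and than with Sora by -1.32 (SE 0.15, adjusted p = 5.22e-11 in edgeR), with no overlap between libraries. Alb was lower with SB525334 than with Nint by -0.84 (SE 0.2, adjusted p = 0.000194 in edgeR) and than with Sora by -1.27 (SE 0.2, adjusted p = 2e-07 in edgeR), and these groups overlapped. Cyp2e1 was higher with SB525334 than with Nint by 1.44 (SE 0.58, adjusted p = 0.0235 in edgeR) and than with Sora by 1.25 (SE 0.57, adjusted p = 0.048 in edgeR).

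Neither Cyp2e1 difference passed under every choice of libraries. SB525334 libraries 1, 6 and 8 were the highest of their group in Cyp2e1, so leaving them out shrinks both differences by that choice. Without them the differences from Nint and Sora were 0.28 (edgeR adjusted p = 0.688) and 0.09 (edgeR adjusted p = 0.904). Without library 8 alone the differences were 0.91 (edgeR adjusted p = 0.144) and 0.72 (edgeR adjusted p = 0.25). The difference from Sora also missed the threshold without SB525334 library 1 or 6 and without any one of Sora libraries 2, 4, 5, 6, 7, 8 and 9, over a range of 0.72 to 1.63 for single libraries left out. Between Nint and Sora the log2 fold changes were -0.44 for Alb (95% interval -0.82 to -0.06, edgeR adjusted p = 0.232), -0.22 for Hnf4a (-0.5 to 0.06, edgeR adjusted p = 0.458) and -0.19 for Cyp2e1 (-1.32 to 0.94, edgeR adjusted p = 0.917). The Cyp2e1 value was 0.2 without Sora library 1. Hnf4a passed in a fit of the 2 groups alone (-0.22, edgeR adjusted p = 0.0135).

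By mean CPM, Alb was ordered SB525334, vehicle, Nint, Sora and sham from low to high, and of these neighbours SB525334 and vehicle, vehicle and Nint, and Nint and Sora did not differ past the threshold. Hnf4a was ordered SB525334, sham, vehicle, Nint and Sora, and only the step from SB525334 to sham passed between neighbours. Cyp2e1 was ordered sham, vehicle, Nint, Sora and SB525334, with the step from vehicle to Nint past the threshold. The step from Sora to SB525334 passed at an edgeR adjusted p of 0.048, but not in 9 of 10 alternatives beside single libraries left out, and it was 0.09 without SB525334 libraries 1, 6 and 8.

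The ratio of 2 genes in the same library does not depend on how libraries are scaled. The 3 ratios were tested in the 10 comparisons with two-sided permutation tests, exact where a group held under 10 libraries, and adjusted over 30 tests. With gene lengths unknown, differences of a ratio between groups are given and not its own value as a measure of either gene.

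Hnf4a relative to Alb rose with ligation. The log2 ratio of counts was -2.52 ± 0.4 in ligated vehicle slices (SD, n = 10) and -5.13 ± 0.52 in sham slices (n = 9), without overlap. The difference of 2.61, or 6.09-fold, had an adjusted p of 5.41e-05 (exact permutation test, from 1.08e-05, the smallest these libraries can give). Between these groups Alb alone changed by -2.44, while Hnf4a alone did not pass (0.07, edgeR adjusted p = 0.651). The compound groups kept ratios of -3.01 ± 0.42 (SB525334, n = 9), -2.81 ± 0.35 (Nint, n = 10) and -3.03 ± 0.39 (Sora, n = 10), all without overlap with sham. Against vehicle the ratio was lower with SB525334 by -0.49 (exact permutation test, adjusted p = 0.0253) and with Sora by -0.51 (permutation test, adjusted p = 0.0118), while with Nint the difference of -0.29 did not pass (permutation test, adjusted p = 0.125). The SB525334 difference missed the threshold without SB525334 library 2 or 6 (exact permutation test, adjusted p = 0.0506 and 0.0516) and without libraries 1, 6 and 8 together (-0.33, adjusted p = 0.179). The Nint difference passed without vehicle libraries 3 and 6 (-0.39, exact permutation test, adjusted p = 0.0445). Between SB525334 and Sora the difference was 0.02 (exact permutation test, adjusted p = 0.935).

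Cyp2e1 relative to Alb was higher with every compound than with vehicle. The log2 ratio was -4.42 ± 1.41 with SB525334 (SD, n = 9), -6.34 ± 0.82 with Nint (n = 10), -6.84 ± 1.26 with Sora (n = 10), -10.06 ± 1.35 with vehicle (n = 10) and -12.21 ± 1.24 in sham slices (n = 9). Against vehicle the differences were 5.64 with SB525334 (exact permutation test, adjusted p = 0.000103), 3.72 with Nint (permutation test, adjusted p = 0.000103) and 3.22 with Sora (permutation test, adjusted p = 0.00032). SB525334 exceeded Nint by 1.92 and Sora by 2.42 (exact permutation tests, adjusted p = 0.0042 and 0.00316), and both differences passed without libraries 1, 6 and 8 (1.43 and 1.93, adjusted p = 0.0376 and 0.0258). Without those libraries Cyp2e1 alone differed by only 0.28 and 0.09 (edgeR adjusted p = 0.688 and 0.904). Alb alone differed by -1.34 and -1.78. These libraries were the highest of the group in both genes, so leaving them out shifts the split towards Alb by that choice. With all libraries Cyp2e1 alone differed by 1.44 and 1.25, and Alb alone by -0.84 and -1.27. Ligated vehicle slices exceeded sham slices by 2.15 (exact permutation test, adjusted p = 0.000783), or by 1.34 as a difference of medians, and these groups overlapped. Between them Alb alone changed by -2.44, while Cyp2e1 alone did not pass (0.3, edgeR adjusted p = 0.739). As differences of medians the rises over vehicle were 6.42 with SB525334 and 4.37 with Nint.

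Cyp2e1 relative to Hnf4a was also higher with the compounds, by 6.13 with SB525334 (exact permutation test, adjusted p = 0.000103), 4.01 with Nint (permutation test, adjusted p = 0.000115) and 3.72 with Sora (permutation test, adjusted p = 0.000375) against vehicle. Without vehicle libraries 3 and 6 these were 6.81, 4.69 and 4.4, and without SB525334 libraries 1, 6 and 8 the first was 5.48. As a difference of medians the first was 7.07. SB525334 exceeded Nint by 2.12 and Sora by 2.4 (exact permutation tests, adjusted p = 0.00727 and 0.00888), but not past the threshold without libraries 1, 6 and 8 (1.47 and 1.76, adjusted p = 0.0651 and 0.072). As differences of medians they were 2.75 and 3.13 (exact permutation tests, adjusted p = 0.00893 and 0.032). Between ligated vehicle and sham slices the difference was -0.46 (exact permutation test, adjusted p = 0.541), and without vehicle libraries 3 and 6 it was -1.13 (exact permutation test, adjusted p = 0.0445). As a difference of medians it was -1.34 (exact permutation test, adjusted p = 0.134).

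**Figure D3:**
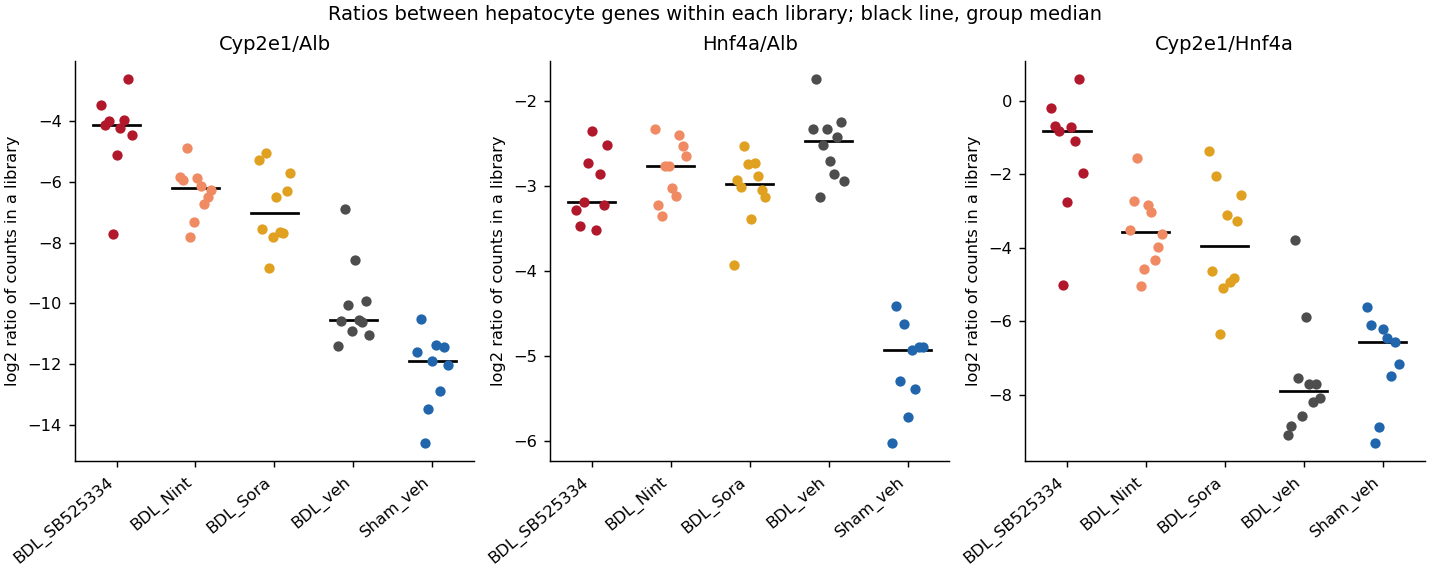
Log2 ratios of counts between pairs of the 3 genes in each library, by group, with the group median as a black line. Hnf4a relative to Alb separates all 39 ligated libraries from the 9 sham libraries, as Alb alone does. Cyp2e1 relative to Alb is highest with SB525334 by median (-4.15).

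The 3 genes differed in how evenly they were expressed within a group. The coefficient of variation of CPM lay between 7.18% and 39.4% for Hnf4a, between 16.5% and 48.4% for Alb and between 69.7% and 172% for Cyp2e1. Cyp2e1 differed 116-fold between the highest and lowest SB525334 library and 13-fold to 31.6-fold within the other ligated groups. The 172% and the 31.6-fold are those of the vehicle group, in which library 3 held 13 CPM. The 8 vehicle libraries other than 3 and 6 held 0.409 to 1.29 CPM, on 6 to 19 counts, so counting error adds to the spread there.

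Within the SB525334 group the 3 highest libraries and the lowest library were the same for all 3 genes. Libraries 1, 6 and 8 held 1350, 1610 and 1560 CPM of Alb, against 459 to 977 CPM in the other 6. They held 139, 141 and 168 CPM of Hnf4a, against 69.6 to 105 CPM. For Cyp2e1 they held 122, 85.6 and 252 CPM, against 2.17 to 55.1 CPM. Libraries 1, 6 and 8 were thus above the others in all 3 genes. Library 4 was lowest in each, with 459 CPM of Alb, 69.6 CPM of Hnf4a and 2.17 CPM of Cyp2e1. In Alb, library 5 was nearly the same, at 460 CPM. The order of the remaining libraries differed between genes. Among them library 2 held the most Alb (977 CPM) and the least Hnf4a (88.9 CPM).

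Some shares of reads moved with these values. Non-uniquely mapped reads made up 11.27%, 9.85% and 10.94% of reads in libraries 1, 6 and 8, against 13.42% to 20.85% in the others, and 20.85% in library 4. Mitochondrial alignments were 2.19% to 2.48% in libraries 1, 6 and 8, 4.49% in library 4 and 2.49% to 3.19% in the remaining 5. Intronic alignments overlapped, at 29.52% to 33.11% in libraries 1, 6 and 8 and 25.98% to 31.65% in the others. As groups, non-uniquely mapped reads were 14.4 ± 3.44% with SB525334 and 8.54 ± 0.235% with vehicle (SD). Whether these measures bear on the levels of the 3 genes was not tested. Markers of other liver cells are not analysed here.

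**Figure D4:**
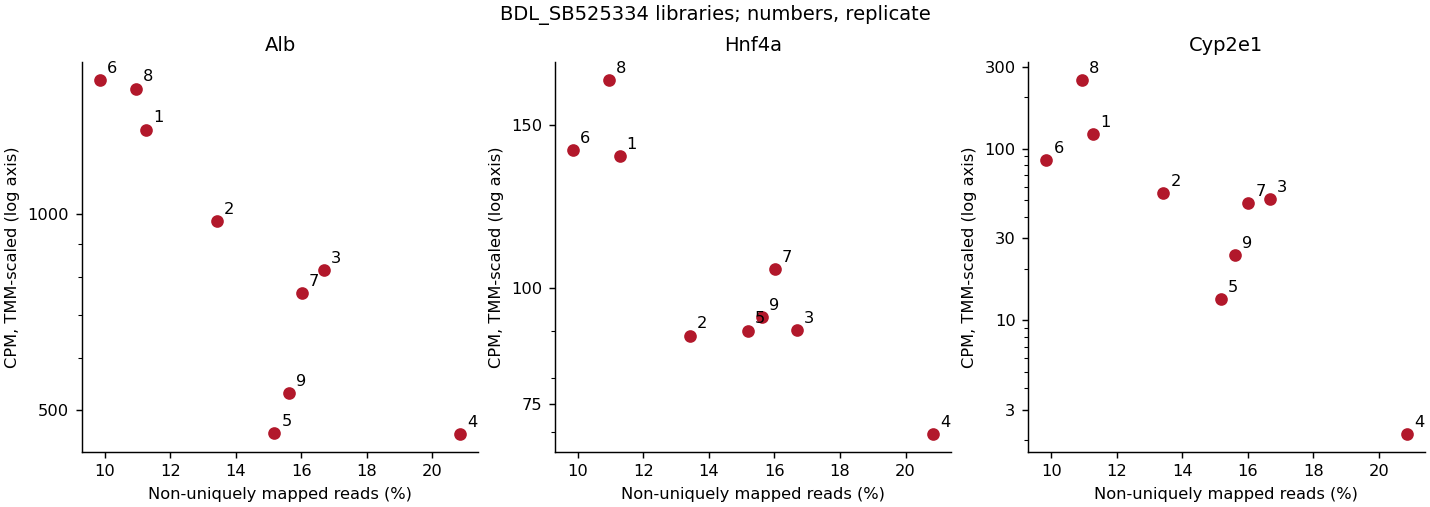
Alb, Hnf4a and Cyp2e1 in CPM (log axes) against the share of non-uniquely mapped reads in percent, for the 9 SB525334 libraries, numbered by replicate. Libraries 1, 6 and 8 have the lowest shares and the highest levels of all 3 genes, and library 4, at 20.85%, has the lowest levels. Library 5, at 15.18%, is nearly as low in Alb (460 CPM).

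In all, 15 correlations of log2 CPM were computed, for the 3 pairs of genes within each group. With SB525334, Alb and Cyp2e1 had r = 0.88 (n = 9, exact permutation p = 0.000234, adjusted 0.00351) and rho = 0.95 (exact permutation p = 0.000353, adjusted 0.00529), and r = 0.86 without the 2 libraries farthest in Alb. Alb and Hnf4a had r = 0.87 (exact permutation p = 0.00416, adjusted 0.0208) and rho = 0.77 (p = 0.0214, adjusted 0.0985), and r = 0.76 without the 2 farthest. Hnf4a and Cyp2e1 had r = 0.87 (exact permutation p = 0.00136, adjusted 0.0102) and rho = 0.77 (p = 0.0214, adjusted 0.0985), and r = 0.84 without the 2 farthest.

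With Sora, Alb and Cyp2e1 had r = 0.77 (n = 10, permutation p = 0.0061, adjusted 0.0229) and rho = 0.71 (p = 0.0263, adjusted 0.0985), and r = 0.68 without the 2 farthest. With Nint they had r = 0.74 (n = 10, permutation p = 0.0155, adjusted 0.0432) and rho = 0.49 (p = 0.155, adjusted 0.387), but r = 0.19 without the 2 farthest libraries, on which the relation rests. With vehicle, Hnf4a and Cyp2e1 had r = -0.71 (n = 10, permutation p = 0.0173, adjusted 0.0432) and rho = -0.38 (p = 0.28, adjusted 0.524), but r = 0.05 without the 2 farthest, so this relation rests on those as well. The other 9 correlations had adjusted p-values of 0.365 or more for r and 0.252 or more for rho (permutation tests).

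**Figure D5:**
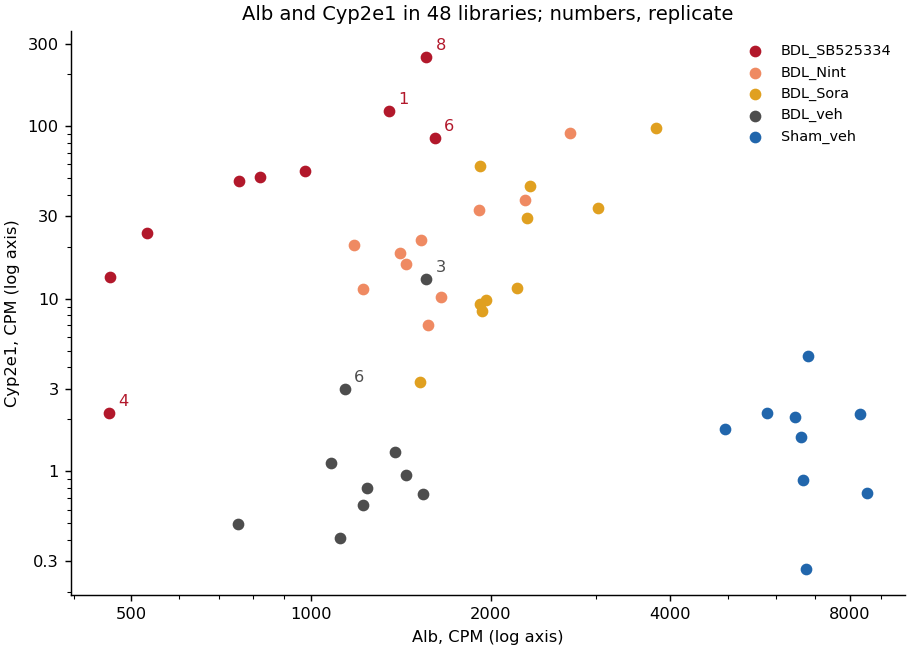
Alb against Cyp2e1, both in CPM on log axes, in the 48 libraries, coloured by group, with the replicate number beside SB525334 libraries 1, 4, 6 and 8 and vehicle libraries 3 and 6. Within SB525334 the points rise together (r = 0.88, n = 9), and vehicle library 3, at 13 CPM of Cyp2e1, lies among the Nint and Sora libraries.

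The genes most like each of the 3 were taken by Pearson r of log2 CPM over the 48 libraries, among 13626 other genes with a mean of at least 1 CPM. These values describe libraries that share groups and scaling. Genes chosen this way follow the same group pattern by choice, so no test is given for them. Alb had the most close matches: 144 genes had r of at least 0.9 with it, against 16 for Hnf4a and 1 for Cyp2e1. The closest to Alb was ENSRNOG00000009957 (r = 0.969), with a mean of 20.6 ± 1.5 CPM in ligated vehicle slices and 52.5 ± 2.3 CPM in sham slices (SD). The closest to Cyp2e1 was ENSRNOG00000005479 (r = 0.917), at 11.2 ± 5.88 CPM with SB525334, 6.38 ± 3 CPM with Nint, 5.97 ± 1.68 CPM with Sora and 1.19 ± 0.755 CPM with vehicle (SD). The files give no symbol for either gene.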

How the data were processed

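RNA from precision-cut liver slices was sequenced in 48 libraries. Per the submitters' processing notes, RSEM, edgeR and the build Rnor_6.0 were used. No aligner or annotation is named there. The authors deposited expected counts per gene without normalisation. At a tolerance of 1e-06, 8.02% of them were fractional and were rounded. The authors also deposited log2 CPM values for 14418 genes, used as an alternative. Read shares in percent come from the authors' deposited quality metrics.

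Genes were filtered with filterByExpr by group and scaled by TMM. Version 4.0.16 of edgeR (R 4.3.3, quasi-likelihood, robust) was fitted to all 48 libraries with 1 coefficient per group and tested in 10 two-sided comparisons. Standard errors come from the F statistic. Log2 CPM used a prior count of 2. Ratios and correlations were tested by permutation (100000 draws where not exact; Python 3.11.15, NumPy 2.4.6). The edgeR fitting code, and not the permutation tests, was tested on simulated counts for some of the comparisons. Alternatives were RLE factors, total counts, DESeq2 1.42.0, 2 filters, the 2 groups alone, replicate number and plate column as factors, limma 3.58.1 on the authors' values, and libraries left out.

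Total counts of 12249454 to 29596955 per library make 3 counts, the limit that a count of 0 allows, equal to 0.101 to 0.245 CPM. Counting intervals would cover counting error only. Over 207 pairs of libraries within groups chi-square divided by its degrees of freedom was at least 3.94, so none was treated as a duplicate. The labels name no batch; well codes in the library descriptions were read as plate positions. Replicate numbers were not taken to pair libraries, but pairing by animal is not excluded. By comparison, correlations of deviations between libraries with the same number had medians of -0.07 to 0.11. Their lowest values were -0.28 to -0.1 and their highest 0.07 to 0.55.

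The members and lists were chosen with earlier results of these data known. The named genes were the 3 members and the closest gene to Alb and to Cyp2e1 by correlation. Lists of further hepatocyte genes and markers of other liver cells need symbols, and 0 of 32883 IDs matched the gene table used here (GRCr8, 47357 genes), so they are not analysed here. No strand setting of the counting is stated, so overlapping genes cannot be told apart.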

Additional observations from a re-analysis of the deposited data

Results flagged for a closer look

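Each of the 3 genes and 3 ratios was checked in each of the 5 groups for a library that lay far from the others, by the gap to its nearest neighbour as a share of the group's range. Of 30 checks 6 found one. For normally distributed values chance finds about 1 in 20, and CPM of Cyp2e1 was skewed, so that rate need not hold for it. For Cyp2e1, SB525334 library 8 held 252 CPM against 122 CPM in the next library. Nint library 3 held 91 CPM against 37.2 CPM in the next, and vehicle library 3 held 13 CPM against 2.98 CPM in the next. Sham library 2 held 4.64 CPM of Cyp2e1 against 2.18 CPM in the next. For Hnf4a, Nint library 7 was lowest at 178 CPM, with the next at 226 CPM. The log2 ratio of Cyp2e1 to Alb was -7.72 in SB525334 library 4, with the next lowest at -5.11. On log2 CPM, a scale added after seeing the data, 0 of the 4 Cyp2e1 libraries passed the same check, with gaps of 0.155 (SB525334 library 8), 0.35 (Nint library 3), 0.451 (vehicle library 3) and 0.292 (sham library 2) of the group's range. Nint library 7 passed for Hnf4a on that scale too, with a gap of 0.589.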

How the results depend on the processing

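The Alb difference between SB525334 and vehicle passed the threshold with RLE factors (-0.47), total counts (-0.78) and a filter of 5 CPM (-0.46). It also passed with DESeq2 (-0.47) and limma on the authors' log CPM (-0.55). Without SB525334 libraries 1, 6 and 8, the highest in Alb, the difference of -0.9 passed the threshold. The Cyp2e1 difference between SB525334 and Sora missed it with RLE factors (1.22), total counts (0.96), no filter (1.25), the 5 CPM filter (1.2), plate column (0.96), DESeq2 (1.21), the authors' log CPM (1.02), the 2 groups alone (1.24) and without those libraries (0.09). Between SB525334 and Nint it missed with total counts (1.13), the authors' log CPM (0.96) and without those libraries (0.28). Hnf4a between vehicle and sham slices passed with total counts (0.42) and without sham libraries 2 and 4 (0.36), and turned with plate column (-0.01). Between Nint and sham it passed with total counts (0.51), the authors' log CPM (0.33) and without sham libraries 2 and 4 (0.48), a set chosen after seeing the data. Hnf4a between Sora and vehicle passed with plate column (0.4) and with the 2 groups alone (0.33), as did Alb between Nint and vehicle (0.43) and Hnf4a between Nint and Sora (-0.22) with the 2 groups alone. Cyp2e1 between vehicle and sham turned with the authors' log CPM (-0.25) and without vehicle libraries 3 and 6 (-1.19), and between Nint and Sora with the authors' log CPM (0.06). Genes called between Nint and Sora numbered 343, against 161 with plate column, 594 with DESeq2, 171 from the authors' log CPM and 1605 with the 2 groups alone. Between Nint and vehicle 3587 were called, against 5674 with the 2 groups alone. Among ratios, Hnf4a to Alb missed between SB525334 and vehicle (-0.33), and Cyp2e1 to Hnf4a missed between SB525334 and Sora (1.76) and Nint (1.47), without SB525334 libraries 1, 6 and 8. Without vehicle libraries 3 and 6, Hnf4a to Alb passed between Nint and vehicle (-0.39) and Cyp2e1 to Hnf4a between vehicle and sham (-1.13). By medians Hnf4a to Alb turned between SB525334 and Sora (-0.22). In each case the cause was not tested.

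With 1 library left out at a time, Alb between SB525334 and vehicle ran from -0.53 to -0.3. Cyp2e1 ran from 0.72 to 1.63 between SB525334 and Sora, 0.91 to 1.9 between SB525334 and Nint, -0.65 to 0.2 between Nint and Sora, and -0.83 to 0.62 between vehicle and sham. Hnf4a ran from 0.32 to 0.37 between Sora and vehicle, 0.11 to 0.33 between Nint and sham, and -0.02 to 0.2 between vehicle and sham. Hnf4a to Alb ran from -0.57 to -0.4 between SB525334 and vehicle and from -0.08 to 0.08 between SB525334 and Sora. Genes called between Nint and Sora ran from 166 (without Sora library 6) to 567 (without Sora library 3), with 212 and 195 without Nint libraries 1 and 7 and 191 and 228 without Sora libraries 5 and 8.

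Replicate number as a block changed no call of the 3 genes. It turned Cyp2e1 between vehicle and sham to -0.13 (edgeR adjusted p = 0.869). At most 3 libraries in a comparison matched their own number best, and the numbers were not taken to pair libraries. Cyp2e1 rested on 4 to 217 counts per library in the sham and vehicle groups, which limits its precision there. Over 70 results, 449 of 492 values under other alternatives and 1308 of 1344 with 1 library left out kept their direction and their side of the threshold, or for counts stayed within 1.5 times.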
